A study of Mus musculus with 6 samples.

Results

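TAK1-deficient and wild-type B cells of mouse bone marrow, both sorted for surface Igkappa light chain, were compared on 4 of the 6 expression arrays of the series, chosen by genotype and sorted light chain. There were 2 arrays of TAK1-deficient Igkappa+ cells and 2 of wild-type Igkappa+ cells, and 2 arrays of wild-type Iglambda+ cells entered the fits for their spread. The mice were C57BL/6 animals of mixed gender, 8 to 12 weeks old, and none of the labels names a treatment. The TAK1-deficient mice are labelled mb-1/TAK1f/f and their controls mb-1/TAK1+/+, so both genotypes carry mb-1. That name is another one for Cd79a, a gene of B-lineage cells, and alleles of it are used to drive Cre recombinase from the early stages of B cell development. The labels do not say how complete the deletion was, whether each array came from its own animal, or whether animals were pooled. All p-values therefore measure the spread between these arrays, which may be technical, and the small number of arrays limits every estimate. B cells were enriched by removing CD3, Ter119, CD11b, DX5 and Gr1 positive cells before the light chain sort.

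TAK1 (gene Map3k7) is a kinase that relays signals from the B cell receptor, CD40, BAFF and Toll-like receptors. With its TAB partners it binds polyubiquitin chains built by TRAF ligases, then activates the IKK complex, which frees NF-κB from its IκB inhibitors, and the kinases above JNK and p38. In immature B cells of the bone marrow, NF-κB is known for its place in light chain recombination, survival and the genes of mature B cells.

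The 4 arrays differed in their controls as well as in genotype. The hybridisation controls, bacterial RNAs spiked into every sample, had geometric mean signals of 47043 and 41197 on the TAK1-deficient arrays and 3995 and 3985 on the wild-type Igkappa+ arrays. The 95th percentile of the 27 unspiked control probe sets was 77.7 and 75.7 against 13.4 and 10.3. The median signal was 324 and 323 against 53.9 and 44.9. The ratio of 3′ to 5′ probe sets of Actb, a measure of RNA integrity and labelling, was 6.28 and 4.18 on the TAK1-deficient arrays and 1.49 and 1.46 on the wild-type ones. Arrays of the same genotype resembled each other (Spearman's correlation over probe sets 0.928 between the TAK1-deficient pair), and correlations across genotypes within Igkappa+ cells were 0.486 to 0.522. These differences have the same split as the genotypes, so what they contribute to any value below cannot be told apart from genotype. In sorted bulk cells, fewer cells of a kind and less RNA per cell cannot be told apart either.

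For that reason each probe set was read in 3 ways. The signal reading compared log2(signal + 16). The rank reading compared the probe set's percentile among the 34945 probe sets with a single gene symbol on its own array. The level reading compared log2 signals after subtracting, from each TAK1-deficient array, its trend against wild-type level, so that a probe set is set against those of like wild-type level. Its result is called the level-adjusted difference below, on the log2 scale, TAK1-deficient minus wild-type. Throughout, "lower" and "higher" as calls, and "fell" and "rose", mean an adjusted p of at most 0.05 in all 3 readings with the same direction (limma, Benjamini-Hochberg over 34945 probe sets).

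By signal alone, 26.1% of probe sets were lower and 50.8% higher in the TAK1-deficient cells. By rank the shares were 32.6% and 25.3%, and by level 18.5% and 22.3%. All 3 readings called 8.36% of probe sets lower (2922, from 2499 genes) and 16.9% higher (5900, from 4565 genes). Both TAK1-deficient signals lay below both wild-type Igkappa+ signals in 31.5% of all probe sets, and above both in 57.9%. Lack of overlap between the 2 groups, where given below, was therefore common. Signal and level readings, where both made a call (11055 probe sets), pointed in opposite directions for 2115. Higher calls made up 66.9% of the calls by all 3 readings as deposited, 47.1% with each array centred on its median, 41.8% with each array scaled to its spiked controls and 46.3% after quantile normalisation. The signal reading alone went from 66.0% higher to 25.4%, 22.8% and 35.4%, and its median difference over all probe sets from 1.06 to -1.32, -1.48 and -0.43. Leaving out wild-type Igkappa+ replicate 1 or 2 reduced the lower calls from 2922 to 1397 or 1396, and the higher calls from 5900 to 3962 or 3573.

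**Figure D1:**
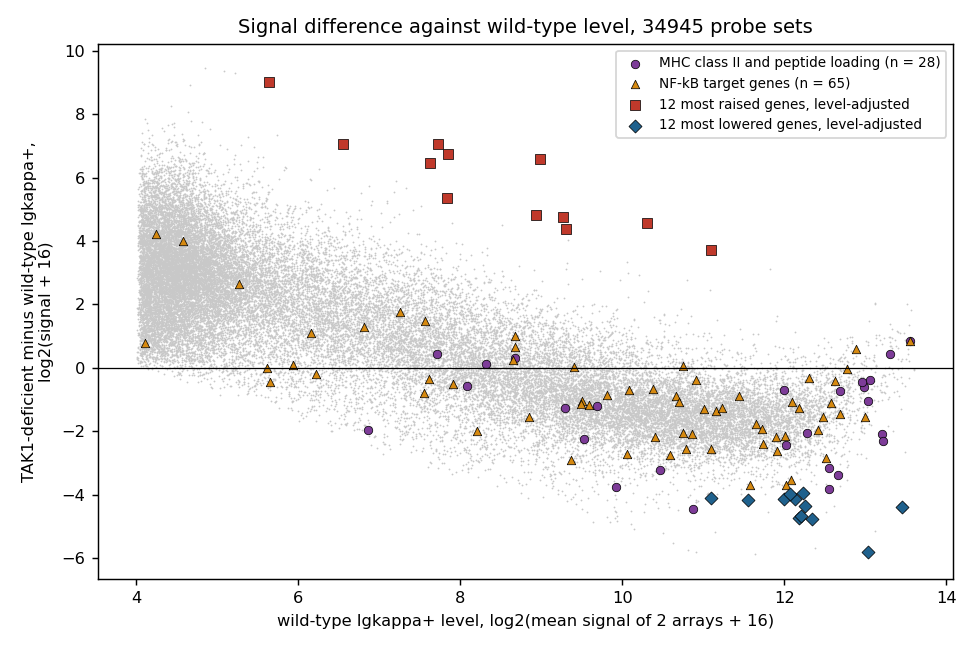
Log2 signal difference (y axis, TAK1-deficient minus wild-type Igkappa+, from 2 arrays each) against wild-type Igkappa+ level (x axis, log2 scale) for 34945 probe sets (grey), with MHC class II genes, NF-κB target genes and the 12 genes of largest level-adjusted difference in each direction marked. The grey cloud slopes from about 3 above 0 at low wild-type level to below 0 at high level, and most MHC class II probe sets lie in its lower part.

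Where a probe set stood in wild-type cells went with the direction of its call. In the lowest quintile of wild-type level the median log2 signal difference was 3.01 and 28.7% of 6989 probe sets were higher, with 0% lower. In the next 3 quintiles higher calls made 24.4%, 19.3% and 10.7% and lower calls 0.0715%, 4.72% and 15.9%. In the highest quintile the median was -1.46, and 21.1% were lower and 1.2% higher. Gene groups are therefore set against the 13978 probe sets of the upper 2 quintiles, of which 18.5% were lower and 5.95% higher, or against the lower 3 quintiles, of which 1.6% were lower and 24.2% higher.

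**Figure D2:**
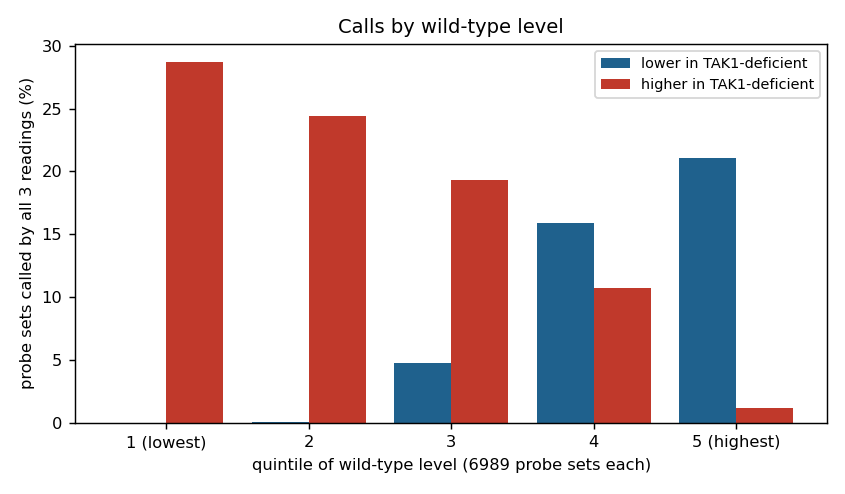
Percent of probe sets called lower (blue) or higher (red) by all 3 readings (y axis) in each quintile of wild-type level (x axis, 6989 probe sets each). Higher calls go from 28.7% in the lowest quintile to 1.2% in the highest, and lower calls from 0% to 21.1%. Probe sets near the bottom or top of the ranks have little room for a call further in that direction.

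The sorted cells carried B cell genes on all 4 arrays. Ms4a1 (CD20) and Cd79b, the receptor chain Igβ, stood at a mean percentile rank of 99.8 or more in both genotypes. Cd79a read 2594 and 3166 on the TAK1-deficient arrays and 6666 and 8189.9 on the wild-type arrays, with a level-adjusted difference of -0.28 ± 0.13 (SE, adjusted p = 0.128). Cd22, an inhibitory co-receptor, fell in 1 of 2 probe sets, at 479 and 584 against 2832 and 3792 (-1.10 ± 0.20 (SE, adjusted p = 0.00519)). The other was higher by level only (0.87 ± 0.12). Pax5, a B lineage transcription factor, was weak, with its 2 probe sets between 20.0 and 193 in wild-type Igkappa+ and between 29.0 and 191 in TAK1-deficient cells. Both were lower by rank. The dimmer was also lower by level (-2.69 ± 0.46 (SE, adjusted p = 0.00374)), its TAK1-deficient values lying below their unspiked control level.

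Map3k7 itself had 6 probe sets, of which 2 fell. The brighter of these read 412 and 331 on the TAK1-deficient arrays and 1766 and 1822 on the wild-type arrays. Its level-adjusted difference was -0.78 ± 0.25 (SE, adjusted p = 0.04), a call that was lost when TAK1-deficient replicate 2 or either wild-type array was left out. The other read 149.9 and 251 against 1211 and 894, with -1.14 ± 0.30 (SE, adjusted p = 0.0216), and lost its call without TAK1-deficient replicate 1 or either wild-type array. A further bright probe set, at 346 and 599 against 2196 and 1805, was lower by signal and rank but not by level (-0.59 ± 0.26 (SE, adjusted p = 0.111)). In these 3 probe sets both TAK1-deficient arrays lay below both wild-type arrays, yet many probe sets of like wild-type level did too. Probe positions on the gene and its deleted segment were not analysed here, so these values do not test the deletion.

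Among 52 probe sets of the TAK1 complex and its adaptors, 8 were lower and 2 higher, and in the upper 2 quintiles 7 of 38 (18.4%) were lower, near the background of 18.5%. The median level-adjusted difference was -0.35, against 0.00 over all probe sets. Bcl10, an adaptor between the B cell receptor and TAK1, fell in 3 of its 4 probe sets. One of them read 411 and 425 on the TAK1-deficient arrays and 4986 and 5251 on the wild-type arrays, the groups lying far apart, with -2.25 ± 0.18 (SE, adjusted p = 0.000482). Traf2, an adaptor of CD40 and TNF receptors, read 86.2 and 28 against 480.5 and 609 (-2.44 ± 0.52 (SE, adjusted p = 0.00876)), with 1 of the TAK1-deficient values below the unspiked control level of its array. In the other direction, Xiap, a ubiquitin ligase that binds TAB1, read 2647 and 2794 against 347 and 357 in 1 of 7 probe sets (3.05 ± 0.31 (SE, adjusted p = 0.000691)), and no other Xiap probe set was called by all 3 readings. Its signal difference of 2.89 became 0.51 after median centring and -0.50 after spike-in scaling, neither past the threshold. Ube2n, the ubiquitin-conjugating enzyme that makes the chains TAK1 complexes bind, rose in 1 of 2 probe sets, from 4014 and 4807 to 6703 and 6589.6. With median centring and spike-in scaling the Ube2n signal difference of 0.60 became -1.79 and -2.85, both past the threshold in the other direction. The Tab1, Tab2 and Tab3 partners had no probe set called by all 3 readings. Without wild-type replicate 2 the lower count of the group was 5.

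The NF-κB subunits, their IκB inhibitors and the IKK complex gave 9 lower and 2 higher among 41 probe sets. In the upper 2 quintiles 9 of 33 (27.3%) were lower and 1 higher. Rela, the p65 subunit, read 247 and 138 on the TAK1-deficient arrays and 1669 and 1626 on the wild-type arrays. The 2 TAK1-deficient values were the lowest of the 4, and the level-adjusted difference was -1.62 ± 0.34 (SE, adjusted p = 0.00871), which lost its call without either wild-type array. Map3k14, the kinase NIK of the alternative pathway, read 48.7 and 32.1 against 616 and 492 in 1 of 2 probe sets (-2.65 ± 0.34 (SE, adjusted p = 0.00124)), the TAK1-deficient values lying below the unspiked control level of their arrays. Ikbkg, the IKK scaffold NEMO, fell in 2 of 6 probe sets, and Nfkbib, an IκB inhibitor, in 1 of 2.

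Nfkbia, the IκBα inhibitor and a target gene of NF-κB, gave different answers by probe set. One of 5 fell, from 2987 and 3796 to 605 and 641 (-0.91 ± 0.18 (SE, adjusted p = 0.00679)). The other 4 had level-adjusted differences of 0.76 to 1.62. Among these, 1 read 10587 and 12033 on the TAK1-deficient arrays and 7991 and 7112 on the wild-type ones. Nfkb2, the precursor of p52, likewise had 1 probe set higher (1774 and 1061 against 425 and 506) and 1 with a level-adjusted difference of -0.05 ± 0.30, not called. The higher call of Nfkb2 was not kept with median centring or spike-in scaling. Its signal difference of 1.53 became -0.85 and -1.84, the latter past the threshold in the other direction. Without wild-type replicate 1 or 2 the lower count of the group was 4 or 5.

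Of 65 probe sets of NF-κB target genes, 14 were lower and 2 higher. In the upper 2 quintiles 14 of 51 (27.5%) were lower and 1 higher, and the median level-adjusted difference of the list was -0.29. Ltb, the membrane cytokine lymphotoxin β, read 270.2 and 339 on the TAK1-deficient arrays and 3736 and 4553 on the wild-type arrays. The values did not overlap, as in 31.5% of all probe sets on the lower side, and the level-adjusted difference was -2.30 ± 0.19 (SE, adjusted p = 0.000499). Cd83, a surface glycoprotein of activated and maturing B cells, read 739 and 883 against 5944 and 5759 (-1.64 ± 0.13 (SE, adjusted p = 0.000499)). Ccr7, the chemokine receptor that guides lymphocytes into lymph nodes, read 266 and 478 against 3916 and 4748 (-2.16 ± 0.26 (SE, adjusted p = 0.00105)). All 4 wild-type arrays were alike in these genes, the Iglambda+ arrays reading 4227 and 3852 for Ltb. Tnfaip3, the A20 enzyme that limits NF-κB signalling, fell in its brighter probe set, from 2002 and 1499 to 259.9 and 302. Birc3, the cIAP2 ubiquitin ligase, fell in 1 of 2 probe sets, from 4724 and 6169 to 1393 and 1355, and Icam1, with 549 and 321 against 1974 and 1704, was not called by level (-0.59 ± 0.34 (SE, adjusted p = 0.201)). Without wild-type replicate 1 or 2 the lower count of the list was 9 or 6.

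The promoter of Ltb is shown because Ltb had the largest level-adjusted fall of the called probe sets in the target list. It covers the 200 bases before the annotated start in RefSeq (build GRCm38.p6, chr17:35194307-35194506, plus strand), with the match to a κB motif (GGG, any 2 bases, TTTCC), here on the opposite strand, in capitals at -87 to -78.
Ltb: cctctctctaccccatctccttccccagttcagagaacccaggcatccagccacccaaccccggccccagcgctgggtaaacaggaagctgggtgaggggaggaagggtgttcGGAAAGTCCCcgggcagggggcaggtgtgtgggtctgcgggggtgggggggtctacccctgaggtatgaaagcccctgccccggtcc
In the 250 bases before the start, on either strand, this motif was found in 1.41% of 32851 RefSeq mouse promoters and in 5 of 34 promoters of the target list. A match describes letters in this window and not binding.

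MHC class II genes stood out by count. Class II molecules present peptides to T cells; the H2-A and H2-E chains form the presenting molecule, CD74 is its invariant chain, and H2-DM and H2-O load peptides and tune loading. Of 28 probe sets from 15 genes, 14 were lower and 0 higher. The level reading alone called 14 lower and 6 higher. In the upper 2 quintiles 13 of 26 (50%) were lower, against 18.5% of all probe sets there. The median level-adjusted difference of the list was -0.78. Without wild-type replicate 2 the lower count was 9, and over the 4 arrays left out in turn it was 9 to 13.

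H2-Aa, the class II A alpha chain, fell in all 4 of its probe sets. The brightest read 394 and 670.2 on the TAK1-deficient arrays and 10630.4 and 11682 on the wild-type Igkappa+ arrays, with 10667 and 10382 on the Iglambda+ arrays. The mean percentile rank was 67.9 against 99.9, and the level-adjusted difference was -3.57 ± 0.19 (SE, adjusted p = 0.00016). Both TAK1-deficient values thus lay far below every wild-type value. H2-DMa, the alpha chain of the peptide exchange factor, fell in both probe sets, with 134 and 212 against 4021 and 5419.8 in the brighter 1 (-3.30 ± 0.26 (SE, adjusted p = 0.000457)). H2-Oa, whose product restrains H2-DM in B cells, read 547 and 669.9 against 5679.5 and 7258 (-2.20 ± 0.17 (SE, adjusted p = 0.000468)).

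H2-Eb1, the class II E beta chain, read 1896 and 1946 against 8939 and 10068 (-1.37 ± 0.12 (SE, adjusted p = 0.000569)), a smaller fall from a similar wild-type level. H2-Ab1, the A beta chain, fell in 2 of 3 probe sets. Its brightest, at 4477 and 3573 against 7375 and 9367, had a level-adjusted difference of -0.03 ± 0.21 (SE, adjusted p = 0.918). Ciita, the coactivator on which class II transcription depends, fell in 1 of 3 probe sets, from 1579 and 2129 to 60.1 and 79.3 (-3.00 ± 0.43 (SE, adjusted p = 0.00186)). That probe set was near or below the unspiked control level on the TAK1-deficient arrays, and the other 2 had level-adjusted differences of -0.26 and -0.22.

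Not all of the pathway fell. Cd74 read 21818 and 21550.1 on the TAK1-deficient arrays and 10782 and 13236 on the wild-type arrays. Its signals as deposited were thus the higher ones in TAK1-deficient cells. Its rank stayed at the top of every array, and it was not called by rank (1.63 ± 0.12 (SE, adjusted p = 0.000431) by level). Ifi30, a thiol reductase of the loading compartment, read 12408 and 14897 against 8987 and 11212 (1.33 ± 0.11 (SE, adjusted p = 0.000553)), and Ctss, the protease cathepsin S that trims CD74, read 6063 and 7039 against 7943 and 9040.2 (0.61 ± 0.10 (SE, adjusted p = 0.00355)). H2-Ob, the partner of H2-Oa, read 3674 and 4214 against 7396 and 5714 and had a level-adjusted difference of 0.41 ± 0.14 (SE, adjusted p = 0.054). H2-DMb2 split by probe set, with 329 and 475 against 4657 and 7343 in 1 (-2.58 ± 0.24 (SE, adjusted p = 0.000615)) and level-adjusted differences of 0.41 and 0.58 in the others.

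The promoters of 3 class II genes that fell are shown because they share a known element, the Y box, an inverted CCAAT box that lies close to the start of class II genes. Each covers 200 bases before the RefSeq start (GRCm38.p6), with GATTGG or its reverse complement in capitals: H2-Aa at chr17:34287824-34288023, minus strand, H2-Eb1 at chr17:34305667-34305866, plus strand, and H2-Oa at chr17:34092179-34092378, plus strand.
H2-Aa: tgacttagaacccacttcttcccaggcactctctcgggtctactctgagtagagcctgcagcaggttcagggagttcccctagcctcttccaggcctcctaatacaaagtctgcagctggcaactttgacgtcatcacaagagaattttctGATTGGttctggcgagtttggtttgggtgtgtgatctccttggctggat
H2-Eb1: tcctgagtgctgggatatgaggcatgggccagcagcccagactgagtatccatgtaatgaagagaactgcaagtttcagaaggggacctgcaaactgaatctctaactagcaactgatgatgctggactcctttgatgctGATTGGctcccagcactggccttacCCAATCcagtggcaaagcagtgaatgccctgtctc
H2-Oa: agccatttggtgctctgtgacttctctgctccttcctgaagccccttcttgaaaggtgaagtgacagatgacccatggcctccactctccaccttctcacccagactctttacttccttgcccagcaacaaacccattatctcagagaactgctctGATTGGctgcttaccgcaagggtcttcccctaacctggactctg
The matches lie at -49 to -44 in H2-Aa, between -60 and -30 in H2-Eb1, which has 2, and at -44 to -39 in H2-Oa. H2-DMa, which also fell, is not shown. Before the first of its annotated starts there was no match, and before the other the only match lay at -199 to -194. In 250 bases before the start, on either strand, GATTGG was found in 14.6% of 32851 RefSeq promoters and in 9 of 14 promoters of the class II list. The list held genes that fell and genes that did not, so the motif describes the family and not the calls.

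**Figure D3:**
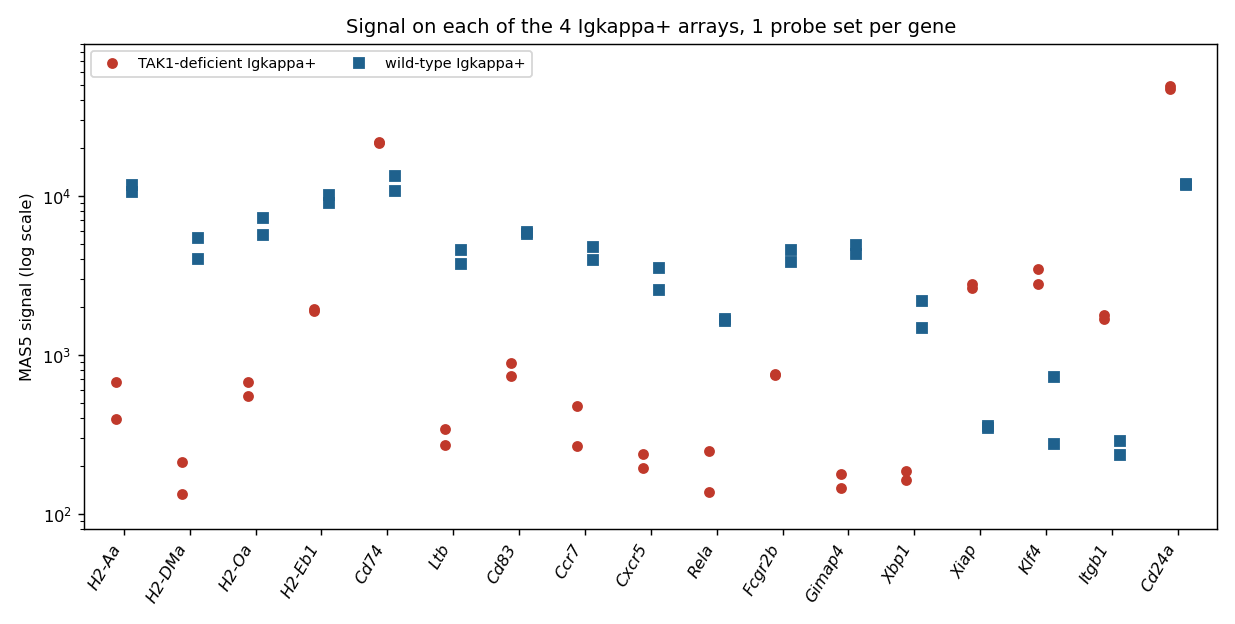
MAS5 signal (y axis, log scale) of 17 genes, 1 probe set each, on the 2 TAK1-deficient (red circles) and 2 wild-type (blue squares) Igkappa+ arrays. From H2-Aa to Xbp1, apart from Cd74, the TAK1-deficient values lie below the wild-type values, and from Xiap to Cd24a they lie above.

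Genes of the mature B cell followed with 16 lower and 2 higher of 44 probe sets. In the upper 2 quintiles 16 of 40 (40%) were lower and 1 higher, and the median level-adjusted difference of the list was -0.33. Gimap4, a GTPase of lymphocyte survival, fell in both probe sets. One read 177 and 145 on the TAK1-deficient arrays and 4329.7 and 4932 on the wild-type arrays (-3.37 ± 0.23 (SE, adjusted p = 0.000358)), the 2 genotypes being far apart. Cxcr5, the receptor that guides B cells to follicles, read 194 and 238 against 2563 and 3492 (-2.18 ± 0.31 (SE, adjusted p = 0.00185)). Cd55, a complement regulator, fell in 2 of 3 probe sets, with 948 and 1028 against 6007 and 7365 in the brightest. Cd200, an inhibitory surface ligand, read 355 and 504 against 3613 and 3679 (-1.57 ± 0.19 (SE, adjusted p = 0.00112)). Fcmr, the Fc receptor for IgM, read 1201 and 1498 against 6273 and 5749 (-0.95 ± 0.13 (SE, adjusted p = 0.0017)), and Fcrl1, an Fc receptor-like activator, fell in both probe sets. Fcer2a, the IgE receptor CD23 of follicular B cells, fell in 1 of 2 probe sets, from 998 and 2052 to 168 and 236. The rest of the list held other patterns. Cd44, an adhesion receptor, was higher in 2 of 4 probe sets and lower in 1. The higher call of its brighter rising probe set was lost with median centring and spike-in scaling. There the signal difference of 0.99 became -1.39 and -2.33, both past the threshold in the other direction. Foxp1, a transcription factor of B cells, had 0 of 8 probe sets called, with level-adjusted differences of -0.40 to 1.49, and Cd52 (1.03) and Cr2, the complement receptor CD21 (0.10), were not called. Without wild-type replicate 2 the lower count was 10.

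Homing receptors moved in both directions, with 8 lower and 9 higher of 32 probe sets. Of the 20 in the upper 2 quintiles, 7 (35%) were lower and 15% higher, against 18.5% and 5.95% of all probe sets there, and in the lower 3 quintiles 6 of 12 (50%) were higher, against 24.2%. Beside Cxcr5 and Ccr7, Itgb7, an integrin chain of gut homing, read 323 and 371 against 3181 and 3313 (-1.68 ± 0.36 (SE, adjusted p = 0.00946)). Ccr6, the receptor for CCL20, read 431 and 364 against 2299 and 2750.2 (-1.10 ± 0.35 (SE, adjusted p = 0.0401)). Itgb1, the β1 integrin chain, was higher in 5 of 6 probe sets, with 1769.9 and 1685 against 236 and 289 in the brightest (2.39 ± 0.28 (SE, adjusted p = 0.001)). Ccr9, a chemokine receptor of gut and thymus homing, was higher in 3 of 5, with 1394 and 1327 against 47.7 and 21.9 in 1 of them (2.52 ± 0.40 (SE, adjusted p = 0.00273)). The Itgb1 signal difference of 2.65 became 0.27 after median centring and -0.71 after spike-in scaling, the latter past the threshold in the other direction. That of Ccr9 stayed at 2.43 and 1.72. Cxcr4, which holds B cell precursors in the marrow, read 2741 and 2493 against 5544 and 6019 and had a level-adjusted difference of 0.06 ± 0.15 (SE, adjusted p = 0.759). The lower count was 3 to 5 with any 1 of the 4 Igkappa+ arrays left out.

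Of 40 probe sets for the B cell receptor and its co-receptors, 8 were lower and 0 higher, all in the upper 2 quintiles, where they made 22.9% of 35. The level reading alone called 11 of the 40 lower and 13 higher. Fcgr2b, the inhibitory Fc receptor, fell in 4 of 5 probe sets. The brightest read 742 and 752 on the TAK1-deficient arrays and 3845 and 4589 on the wild-type arrays (-1.07 ± 0.16 (SE, adjusted p = 0.0024)). Another read 13.8 and 82.1 against 3239.6 and 3119 (-4.39 ± 0.46 (SE, adjusted p = 0.000743)), with 1 TAK1-deficient value below the unspiked controls of its array. Cd24a, a surface protein that is most abundant on immature B cells, read 46827 and 48853 against 11675 and 11802 in its brightest probe set. That is a signal difference of 2.03 and a level-adjusted difference of 2.80 ± 0.09 (SE, adjusted p = 5.07e-05), the TAK1-deficient signals being the higher ones. Its rank was near the top in both genotypes, so it was not called by rank. Ms4a1, at 21780 and 26569 against 10466 and 10087, had the same pattern. Both genes were higher in signals as deposited. Median centring lowers every signal difference by the same amount, which took that of Xiap from 2.89 to 0.51. That amount exceeds the signal differences of Cd24a and of this Ms4a1 probe set.

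In receptor signalling, 9 of 73 probe sets were lower and 3 higher, and in the upper 2 quintiles 9 of 51 (17.6%) were lower. The lower ones included Syk, the kinase at the receptor, which read 104 and 58.6 against 323 and 649 in 1 probe set (-1.94 ± 0.46 (SE, adjusted p = 0.0139)), with 1 TAK1-deficient value below the unspiked control level. Pik3cd, the leukocyte PI3-kinase subunit, read 155 and 76.9 against 361 and 326 (-1.56 ± 0.41 (SE, adjusted p = 0.0195)). The lower count by all 3 readings was near the background for probe sets of that level. Over the 73 probe sets the level reading alone called 13 lower and 14 higher.

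BAFF, CD40 and Toll-like receptor genes gave 8 lower and 2 higher of 31 probe sets, 7 of 20 (35%) being lower in the upper 2 quintiles. Cd40, the receptor for T cell help, read 632 and 593 against 3534 and 4137 (-1.16 ± 0.17 (SE, adjusted p = 0.00217)). Tlr7, a sensor of single-stranded RNA, read 20.1 and 27.1 against 678 and 627 in 1 of 3 probe sets (-3.29 ± 0.32 (SE, adjusted p = 0.000652)), the TAK1-deficient values lying below their unspiked control level. Tnfrsf13b, the BAFF and APRIL receptor TACI, read 1000.1 and 1155 against 4275 and 4805 (-0.68 ± 0.18 (SE, adjusted p = 0.0227)). Tnfrsf13c, the BAFF receptor itself, read 5756 and 6751 against 7139 and 7805 and was higher by level only (0.82 ± 0.10 (SE, adjusted p = 0.00108)). The lower count was 3 to 5 with any 1 Igkappa+ array left out. Interferon-stimulated genes gave 9 lower and 1 higher of 32 probe sets, with 9 of 25 (36%) lower in the upper 2 quintiles. Psmb8 and Psmb9, subunits of the immunoproteasome, read 658 and 679 and 924 and 748 on the TAK1-deficient arrays against 3013 and 4181 and 3565 and 4027. The lower count of that list was 2 or 1 without wild-type replicate 1 or 2.

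The MAP kinase cascade had 8 probe sets lower and 10 higher of 50. Of the 35 in the upper 2 quintiles, 22.9% were lower and 17.1% higher, against 18.5% and 5.95% of all probe sets there. Map2k2, the kinase MEK2, fell in both probe sets, with 58.5 and 32.9 against 414 and 412 in 1 (-2.55 ± 0.39 (SE, adjusted p = 0.0024)), the TAK1-deficient values lying below their unspiked control level. Mapk9, the kinase JNK2, fell in 1 probe set, from 443 and 489 to 44.4 and 107 (-2.02 ± 0.40 (SE, adjusted p = 0.00684)), with 1 TAK1-deficient value below the unspiked control level. Mapk8, the kinase JNK1, was higher in 3 probe sets, with 674 and 672 against 289.5 and 356 in the brightest. Dusp10, a phosphatase of JNK and p38, read 1912 and 1418 against 262 and 222 (2.43 ± 0.46 (SE, adjusted p = 0.00552)), and its signal difference was not past the threshold with median centring or spike-in scaling (0.31 and -0.67). With spike-in scaling 0 MAP kinase probe sets were higher and 8 lower. Without wild-type replicate 1 or 2 the list gave 5 or 3 lower, and its higher count was 3 to 5 with any 1 Igkappa+ array left out.

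Immediate-early genes, which respond within minutes to receptor signals, were lower in 10 and higher in 8 of 45 probe sets. In the upper 2 quintiles 10 of 29 (34.5%) were lower and 2 higher. Zfp36, the RNA-binding protein tristetraprolin, read 393 and 564 on the TAK1-deficient arrays and 4553 and 3938 on the wild-type arrays (-1.77 ± 0.19 (SE, adjusted p = 0.000735)). Klf2, a factor of lymphocyte quiescence and trafficking, read 732 and 1046 against 4014 and 4426 (-0.86 ± 0.18 (SE, adjusted p = 0.00833)), and Klf6, a related factor, fell in 4 of 5 probe sets. Ier5 fell in 2 of 3 probe sets, with 1153 and 1352 against 5625 and 5309 in the brighter 1. Klf4, a factor that restrains proliferation, rose in both of its probe sets, with 2803 and 3440.4 against 721 and 276 in 1 (3.45 ± 0.42 (SE, adjusted p = 0.00107)). Nr4a2, an orphan nuclear receptor, was higher in 4 of 6, with 2045 and 1736 against 13.5 and 1.49 in the brightest, wild-type values that did not exceed the unspiked controls on both arrays. The Klf4 signal difference of 2.75 became 0.37 and -0.65 under the 2 other scalings to a single factor, while that of Nr4a2 stayed past the threshold. Without wild-type replicate 1 or 2 the list gave 6 or 5 lower, and its higher count was 3 to 5 with any 1 Igkappa+ array left out.

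The unfolded protein response, which expands the secretory machinery, was lower in 15 and higher in 4 of 57 probe sets. In the upper 2 quintiles 15 of 43 (34.9%) were lower. Xbp1, its transcription factor, fell in all 4 probe sets. One of them read 162 and 187 on the TAK1-deficient arrays and 2175 and 1469 on the wild-type arrays (-1.76 ± 0.27 (SE, adjusted p = 0.00228)), with every TAK1-deficient value below every wild-type value. Calr, the lectin chaperone calreticulin, fell in 3 of 3, with 621 and 783 against 5644 and 4469 in 1 (-1.55 ± 0.17 (SE, adjusted p = 0.000795)). Pdia3, a disulfide isomerase, read 401 and 276 against 3225 and 3813 (-1.86 ± 0.25 (SE, adjusted p = 0.00143)), and Herpud1, of protein degradation at the endoplasmic reticulum, fell in 2 probe sets. Ddit3, the stress factor CHOP, read 1587 and 1489.9 against 357 and 365 and was higher in 1 of 2 probe sets (2.39 ± 0.24 (SE, adjusted p = 0.00069)). That call was not kept with median centring or spike-in scaling, where the Ddit3 signal difference of 2.04 became -0.34 and -1.33, the latter past the threshold in the other direction. Without wild-type replicate 1 or 2 the lower count was 7 or 9.

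Plasma cell genes, listed as markers of another cell that a bone marrow gate could hold, were lower in 9 and higher in 0 of 32 probe sets, 9 of 22 (40.9%) being lower in the upper 2 quintiles. Their summed signal was 12983 and 14999 on the TAK1-deficient arrays and 71420.2 and 56297 on the wild-type arrays. Igha, the IgA heavy chain, read 182 and 96.2 against 9105 and 7630.5, the largest level-adjusted fall of the named genes at -4.43 ± 0.94 (SE, adjusted p = 0.00861). On the wild-type Iglambda+ arrays it read 7093 and 668, so it varied widely within 1 group, and its call was lost without wild-type replicate 1 (adjusted p = 0.0683) or 2 (adjusted p = 0.0597). Jchain, the joining chain of secreted IgM and IgA, read 526 and 538 against 9837 and 4130.3 and was not called by level (-2.03 ± 1.35 (SE, adjusted p = 0.259)). Txndc5 and Mzb1, of antibody folding, read 181 and 259.9 and 756 and 904 against 2937 and 2964 and 4288 and 5127, and both fell. The defining markers Sdc1 and Prdm1 were not called, with the brightest Sdc1 probe set at 999 and 1082 against 2260.1 and 1928. Without wild-type replicate 1 or 2 the lower count was 5 or 6. The part of plasma cells in the falls of Xbp1 and the secretory genes was not tested.

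B lineage transcription factors gave 11 lower and 3 higher of 72 probe sets, and 8 of 56 (14.3%) were lower in the upper 2 quintiles, below the background there. The level reading alone called 13 of the 72 lower and 17 higher. Tcf3, the E2A protein, fell in 3 probe sets, with 259 and 169 against 1626 and 1831 in the brightest (-1.55 ± 0.28 (SE, adjusted p = 0.00444)). Foxo1, which drives recombinase genes and Il7r, read 418 and 472 against 2772 and 3342 (-1.21 ± 0.21 (SE, adjusted p = 0.00406)). Ebf1, which works with Pax5, read 9309 and 9899 against 5983 and 6172 in its brightest probe set, higher by signal as deposited and by level but not by rank. Of its other 4 probe sets, a dim one was lower by all 3 readings (-2.56 ± 0.47 (SE, adjusted p = 0.00476)), at 57.9 and 11.2 against 92.5 and 96.1, the TAK1-deficient values lying below their unspiked controls. The other 3 were lower by signal and not called by all 3 readings. The lower count of the list was 7 without wild-type replicate 2.

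Genes of the pro-B to immature stages were lower in 7 and higher in 5 of 72 probe sets, or 13.5% lower of 37 in the upper 2 quintiles and 11.4% higher of 35 in the lower 3, both below the shares of all probe sets (18.5% and 24.2%). The higher count was 2 to 4 with any 1 Igkappa+ array left out. V(D)J recombination genes were lower in 0 and higher in 1 of 37, with 0 of 24 called in the upper 2 quintiles. Arpp21, an early B lineage transcript, was higher in 2 of 5 probe sets, with 1764 and 1700.2 against 15.1 and 15.6 in 1 (3.08 ± 0.28 (SE, adjusted p = 0.000595)). Il7r, the receptor of precursor growth, read 834 and 775 against 551 and 139 in the brighter of 2 probe sets (1.88 ± 0.56 (SE, adjusted p = 0.0314)). The higher call of Il7r was lost with median centring and spike-in scaling. Its signal difference of 1.47 became -0.91 and -1.84, the latter past the threshold in the other direction. Rag2, of the recombinase, read 399.8 and 428 against 23.8 and 6.56. It was called higher (1.33 ± 0.35 (SE, adjusted p = 0.0208)), but its wild-type signal did not exceed the unspiked controls on 1 array, and its level-adjusted difference was -0.06 when dim probe sets were left out. With spike-in scaling the Rag2 call was lost. Rag1 read 365 and 340.2 against 178 and 69.4 and was not called (1.08 ± 0.45 (SE, adjusted p = 0.0906)).

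Cell cycle genes were lower in 11 and higher in 3 of 63 probe sets. Of the 44 in the upper 2 quintiles, 22.7% were lower, against 18.5% of all probe sets there. Probe sets of Mcm2, Mcm3, Mcm4 and Mcm5, subunits of the replicative helicase, made 8 of the 11, and the 7 probe sets of Mcm6 and Mcm7 were not called. Mcm3 fell in 4 probe sets, with 112 and 167 against 2000.3 and 1553 in the brightest (-2.12 ± 0.34 (SE, adjusted p = 0.00285)). Mcm5 read 15.6 and 22.5 against 900.0 and 869 (-3.70 ± 0.42 (SE, adjusted p = 0.000869)), the TAK1-deficient values lying below their unspiked controls, and Mcm2 fell in 2 probe sets. Cdkn1b, the inhibitor p27 of the cell cycle, also fell in 1 of 2 probe sets, from 1971 and 4037 to 391 and 446. The lower count was 5, 7 or 6 without TAK1-deficient replicate 1 or 2 or wild-type replicate 1. Survival and death genes were lower in 5 and higher in 4 of 69 probe sets, shares below those of all probe sets. Bcl2, which protects mature B cells, fell in 1 of 5, from 1305 and 1532 to 169.7 and 261 (-1.36 ± 0.28 (SE, adjusted p = 0.00754)), and the 6 probe sets of Mcl1, a related protein, had level-adjusted differences of -0.08 to 1.21. The survival list gave 2 or 1 lower without wild-type replicate 1 or 2.

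**Figure D4:**
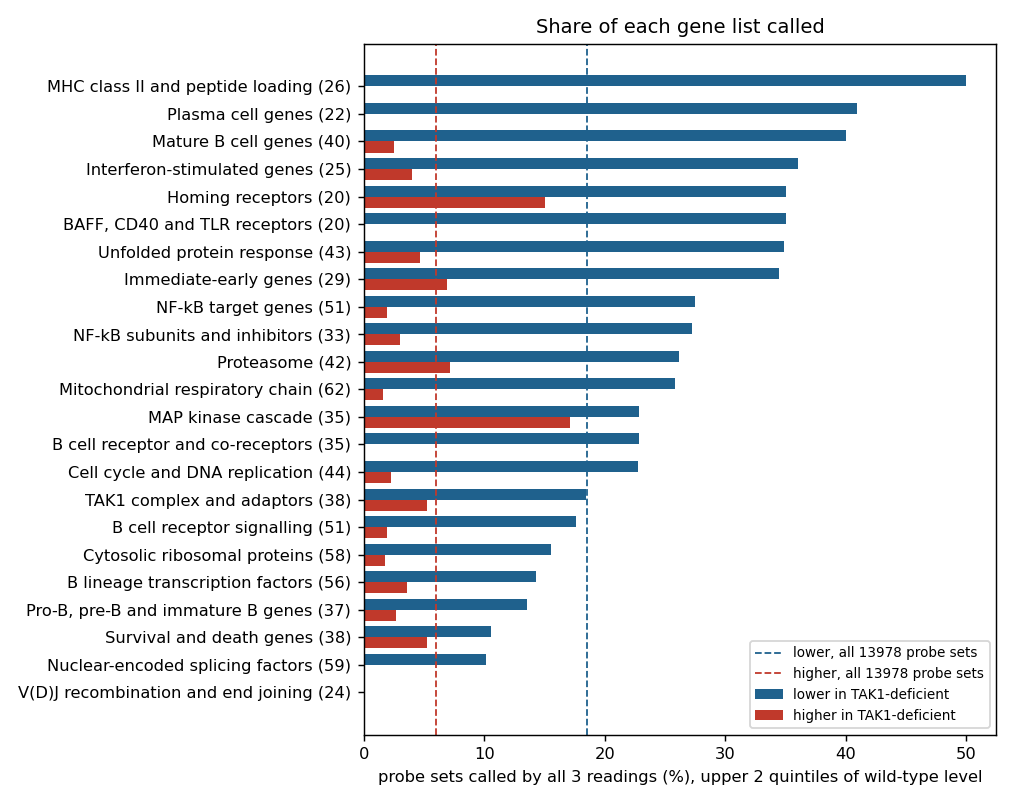
Percent of probe sets in the upper 2 quintiles of wild-type level called lower (blue) or higher (red) by all 3 readings (x axis) for the pathway, housekeeping and plasma cell lists (y axis, with their numbers of such probe sets), beside the shares of all 13978 (dashed lines, 18.5% and 5.95%). Among these lists, MHC class II genes have the longest lower bar at 50%, and the V(D)J recombination list has none.

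Housekeeping groups were not level either. Respiratory chain genes were lower in 16 and higher in 1 of 66 probe sets, with 16 of 62 (25.8%) lower in the upper 2 quintiles, and proteasome genes in 13 and 4 of 53. The level reading alone called 17 lower and 10 higher in the respiratory chain, and 15 and 10 in the proteasome. Cytosolic ribosomal proteins were lower in 11 and higher in 2 of 68, with 9 of 58 (15.5%) lower, and their median level-adjusted difference was 0.46 as deposited and -0.44 after quantile normalisation. As deposited, the level reading alone called 14 of the 68 lower and 34 higher. Splicing factors were lower in 6 and higher in 4 of 68. In the upper 2 quintiles 10.2% of them were lower and 0% higher, against 18.5% and 5.95% of all probe sets there. The level reading alone called 7 of the 68 splicing probe sets lower and 24 higher. NF-κB subunits and NF-κB targets, at 27.3% and 27.5% lower, were thus close to the respiratory chain and proteasome (26.2%) lists. Without wild-type replicate 2 the respiratory chain count was 9, and the proteasome count was 8 without TAK1-deficient replicate 1. The ribosomal count was 5 to 7 and the splicing count 1 to 3 with any 1 Igkappa+ array left out.

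Over single genes, falls were ordered among called, non-overlapping probe sets above the unspiked controls on all 4 Igkappa+ arrays. The 12 genes with the largest level-adjusted falls under this rule ranged from -4.43 to -2.60. Larger falls printed above for probe sets near or below those controls are left out. Beside Igha, H2-Aa, Gimap4 and H2-DMa they held H2-K1, a class I heavy chain, at 87.7 and 330.0 against 4543 and 5796 (-3.49 ± 0.45 (SE, adjusted p = 0.00133)). None of the other 3 H2-K1 probe sets was called by all 3 readings, and one of them, at 5394 and 6549 against 6164 and 8567, had a level-adjusted difference of 0.79 ± 0.18 (SE, adjusted p = 0.0121). Ms4a4c, a membrane protein of the CD20 family, read 134 and 371 against 4957 and 4796 (-3.01 ± 0.40 (SE, adjusted p = 0.0014)). Fxyd5, a regulator of the sodium pump, read 299 and 183 against 3637 and 5325 (-2.78 ± 0.34 (SE, adjusted p = 0.00112)), and Slc2a3, the glucose transporter GLUT3, read 80.9 and 151 against 2059.7 and 2281 (-2.60 ± 0.29 (SE, adjusted p = 0.000865)). The remaining 4, Selenoh, Rnaseh2c, Mrpl11 and Atp5e, lay between -2.72 and -2.60. Of 19 other probe sets of these genes, 13 had the same call and 1, of Slc2a3, the opposite.

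The 12 largest rises under the same rule were of another order, 5.10 to 7.19. Bzw2, of translation control, read 51644 and 44119 on the TAK1-deficient arrays and 387 and 596 on the wild-type arrays (7.19 ± 0.23 (SE, adjusted p = 5.07e-05)), the brightest single-gene signal of TAK1-deficient replicate 1. Mtm1, the phosphatase myotubularin, read 16790.2 and 16712 against 621 and 579 (5.47 ± 0.20 (SE, adjusted p = 6.44e-05)), and Ntmt1, a protein N-terminal methyltransferase, 28141 and 27234 against 242 and 149.9 (6.53 ± 0.29 (SE, adjusted p = 9.7e-05)). Sfi1, of the centrosome, read 24851 and 23275 against 257 and 172 (6.54 ± 0.25 (SE, adjusted p = 6.44e-05)). The others were Orly, Tma16, 3 predicted genes (Gm9222, Gm6958, Gm13238) and 3 genes known by clone names (2610005L07Rik, 5730507C01Rik, 6820431F20Rik). Of the 12 probe sets, 6 carry the name suffixes s or x, which mark probes shared with other transcripts, so their gene is uncertain. The same holds for 7 of the 12 falls above, those of H2-Aa, H2-K1, Ms4a4c, Slc2a3, Rnaseh2c, Mrpl11 and Atp5e. Over all 34945 probe sets, 3869 carry these suffixes. Of 19 other probe sets of the genes with these 12 rises, 12 had the same call and 1, of Ntmt1, the opposite. Higher calls were made for 36.5% of 504 probe sets of predicted Gm genes, 26.9% of 1689 with Rik clone names and 16.1% of 32752 with other symbols, and the median wild-type signals of the 3 classes were 10.3, 11.5 and 100.3. The lowest 2 quintiles of wild-type level held 74.8%, 68.4% and 38.0% of these classes. Within those quintiles the higher shares were closer, at 39.3%, 30.6% and 25.8%.

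Where a gene had several probe sets they often differed. Of 3484 genes with at least 2 in the upper 2 quintiles, 159 were lower in all and 19 higher in all, 101 had calls in both directions and 1882 had none. Dbi, an acyl-CoA binding protein, Fcgr2b and Xbp1 had 4 such probe sets each, all lower. Phgdh, the first enzyme of serine synthesis, was higher in all 4 of its bright probe sets. Of the calls by all 3 readings, 2017 of 2922 lower and 2797 of 5900 higher exceeded the unspiked control level on all 4 Igkappa+ arrays. The other 3103 higher calls rest on a wild-type value within the range of the unspiked controls. Of 79 named higher probe sets, 47 kept the call after median centring and 39 after spike-in scaling, against 91 and 87 of 91 named lower ones. Both scalings moved the median signal difference from 1.06 to below 0 (-1.32 and -1.48), and rank calls stayed at 20258. Lower calls could thus hardly be lost and higher calls could, so these shares do not compare how firm the 2 directions are.

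Markers of cells that the depletion and sort should remove gave different counts by cell type, with 0% to 39.5% of a list higher. T cell markers summed to 12470 and 12593 on the TAK1-deficient arrays and 884 and 777 on the wild-type arrays, with 8 of 35 probe sets higher and 0 lower. Bcl11b, a T lineage factor, read 2431 and 2313 against 16 and 5.07, and Cd3e, a chain of the T cell receptor complex, read 271 and 287 against 2.15 and 27.5 and was not called. Stromal and endothelial markers summed to 17572 and 16315 against 1871 and 1415, with 15 of 38 higher, 7 of them left without wild-type replicate 2. NK markers gave 1 higher of 18, erythroid and megakaryocyte markers 2 of 19, and granulocyte markers 0 of 14. Granulocyte markers summed to 8857 and 9531 against 5825 and 382, the wild-type pair being unlike each other. Monocyte markers gave 2 lower and 0 higher of 26.

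Among genes of tissues that no marrow sort should hold, 17.4% to 36.6% of a list were higher. Liver genes summed to 18481 and 18978 on the TAK1-deficient arrays against 386 and 210 on the wild-type arrays, with 7 of 24 probe sets higher. Neuron genes gave 15 of 41 higher, testis genes 9 of 30, muscle and heart genes 7 of 35, and eye and skin genes 4 of 23. Over all probe sets of the lower 3 quintiles of wild-type level, where nearly all of these lie, 24.2% were higher. Mup10, a urinary protein made by the liver, read 12028 and 12064 against 14.2 and 4.28, and Prm1, a protamine of sperm, 4488 and 5838 against 146 and 94.6. T cell markers (22.9%) and liver genes (29.2%) were thus on either side of that background. Liver genes gave 4 higher without either wild-type array.

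**Figure D5:**
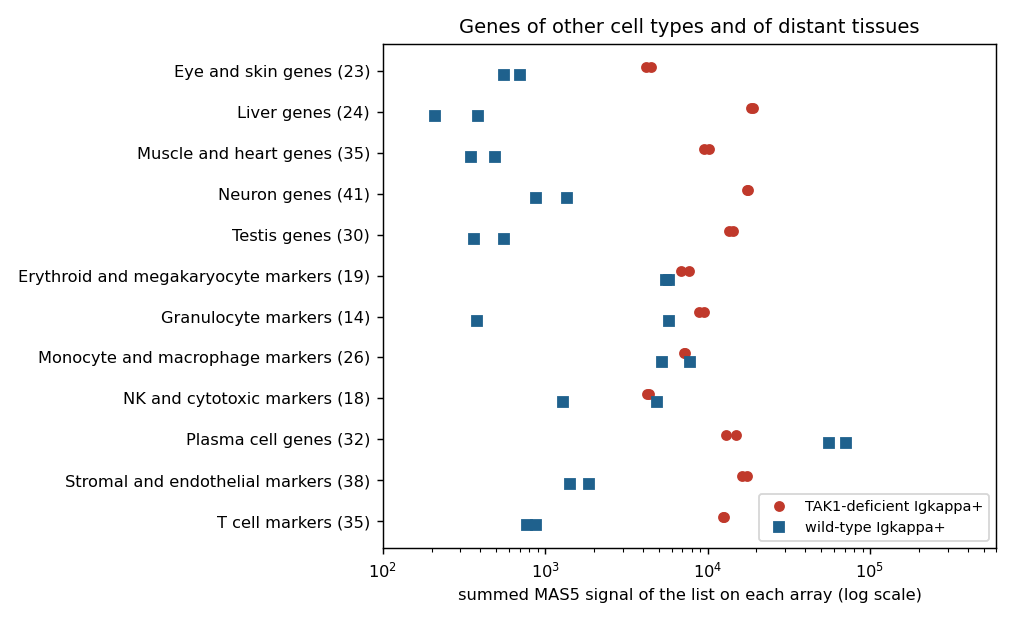
Summed MAS5 signal (x axis, log scale) of marker lists of other marrow cells and of distant tissues (y axis, with the number of probe sets) on each TAK1-deficient (red circles) and wild-type (blue squares) Igkappa+ array. Red points lie to the right for most lists, liver and testis genes included, and to the left for plasma cell genes.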

How the data were processed

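Probe set signals of 6 arrays were used, 2 for each of 3 groups. The deposited values are linear intensities. The submitters' processing notes name MAS5, without a version. Trimming 2% of probe sets at each end leaves a mean deposited intensity of 500.0 on wild-type Igkappa+ replicate 1, as scaling by 1 factor per array would. The trimmed means of the other arrays were not computed. Of 45101 probe sets, 34945 carry 1 gene symbol in the platform annotation (18193 genes), and 34741 of these matched a RefSeq gene (GRCm38.p6). Promoter sequences came from RefSeq.

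Signals, within-array percentile ranks and level-adjusted signals (lowess, span 0.2, against the mean of the 4 wild-type arrays) were each fitted with limma 3.58.1 (R 4.3.3) over all 6 arrays, a mean per group, with a pseudocount of 16 for log2, a mean-variance trend, two-sided tests and Benjamini-Hochberg adjustment at 0.05. On 34945 simulated probe sets, 50 for each size of change, changes of 1, 2, 3 and 4 on the log2 scale were recovered by all 3 readings in 6%, 72%, 86% and 82%, with 1 false call. The changed probe sets were few and of upper wild-type level. The noise was independent, around the same kind of trend that the level reading removes. The simulation therefore does not estimate recovery among dim probe sets or false calls on the real arrays.

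The comparison, its members and the gene lists were chosen with earlier results of these data known, so no list was tested. Named genes were the 12 of largest level-adjusted difference in each direction that were called by all 3 readings, above the 95th percentile of the unspiked controls on all 4 Igkappa+ arrays and not overlapping between groups. Up to 4 genes per list were named by the same rule, then up to 4 more by size whatever the call, with Map3k7 always named. Other genes and probe sets in the text were picked after their values were seen, to describe a list. Alternatives tried were other pseudocounts, scalings, filters, spans, fits and left-out arrays.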

Additional observations from a re-analysis of the deposited data

How the results depend on the processing

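By signal, 26879 probe sets were called as deposited, 14544 with 1 probe set per gene (18193 tested) and 15802 when those under the 40th percentile were left out. By rank the main count was 20258, and 9985 with 1 probe set per gene. By level it was 14235, against 7022 with 1 probe set per gene, 7106 with the filter and 9453 with a pseudocount of 1. By all 3 readings it was 8822, against 4243, 4693 and, after quantile normalisation, 13357. Leaving out each Igkappa+ array in turn gave 7896 to 12374 calls by level and 4969 to 7219 by all 3 readings. Fewer probe sets were tested in the first 2 settings; the cause of the other shifts was not tested. With the filter, level-adjusted differences changed sign for Rag2 (-0.059), a probe set of Hnrnpc (-0.057), Apob (-0.22) and Pdgfra (-0.30), and the cause was not tested.

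Same-numbered arrays were not shown to pair across genotypes. Correlations of their deviations were 0.0019 and 0.0055 between the TAK1-deficient and the wild-type Igkappa+ and Iglambda+ groups. Between the 2 wild-type groups the correlation was 0.210, and whether those arrays pair was not tested. With the number as a replicate block, 8749 probe sets were called by all 3 readings. Of 170 named and called probe sets, 80 kept their call under every one of the 16 alternatives that gave them a value. Signals within the unspiked controls limit what the dim probe sets can show.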

Other observations

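The 11 probe sets of Ighm, the IgM heavy chain, differed from each other. One of the bright ones read 5634 and 7336 on the TAK1-deficient arrays and 7199 and 8585 on the wild-type Igkappa+ arrays. Another read 3910 on wild-type Igkappa+ replicate 1 and 40.1 on replicate 2, 939.9 and 10.4 on the Iglambda+ pair, and 19.6 and 32.2 on the TAK1-deficient arrays. A further one read 5036 and 37.3, 1255 and 4.24, and 35.0 and 189 on the same pairs. In these 2 the arrays without a replicate suffix in their title were high in each wild-type group and their partners were not. Other Ighm probe sets had the same pattern. On the wild-type Igkappa+ and then the Iglambda+ pair, 1 read 3034 and 42.8, then 807 and 20.1. Another read 3092 and 27.1, then 783 and 10.2, and a further one 2666 and 2.65, then 500 and 0.89. A different one read 846 and 459 on the wild-type Igkappa+ pair but 19.6 and 753 on the Iglambda+ pair, the partner being the high one there, and another read 1163 and 120 and then 11.0 and 13.1. Probe sets with no gene listed in the annotation had a median percentile rank of 56.7 and 55.9 on the TAK1-deficient arrays against 35.0 and 36.0 on the wild-type Igkappa+ arrays. For those with a single symbol the medians were 48.0 and 48.1 against 55.0 and 54.8.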
